A study of Mus musculus with 9 samples.

Results

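Chemokine receptors of myeloid cells were described from 9 genes, Ccr1, Ccr2, Ccr3, Ccrl2, Cxcr2, Cxcr3, Cxcr4, Cxcr6 and Cx3cr1, among the 53801 genes counted. They were taken by name, not by their values, and each symbol matched 1 Ensembl identifier of the count tables. All mice were C57BL/6J males of 9 weeks. Stroke mice had the left distal middle cerebral artery and the left common carotid artery closed for good (dMCAO) and gave cells 5 days later, whereas sham blood came from mice after a sham operation whose sampling day the labels and methods do not name. Each stroke brain library pooled cells from the injured-side hemisphere of 5 mice, and each stroke blood or sham blood library held cells of 1 mouse, with 3 libraries per group. Cells of all 9 libraries were sorted as CD11c-, Ly6G-, CD11b+ and CD45high, and there was no sham brain group. Total counts were 20557191, 21281769 and 18475118 in sham blood 1, 2 and 3, 20725974, 21561271 and 18529600 in stroke blood, and 18757650, 22623578 and 21613467 in stroke brain. Levels are counts of a gene per 1000000 counts of its library (CPM), and a floor of 3 counts in a library stood for 0.133 to 0.162 CPM.

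Chemokine receptors are membrane proteins with several helices through the membrane that couple to inhibitory G proteins and steer leukocytes along gradients of small secreted proteins, the chemokines. Blood monocytes of the mouse are divided by them: classical monocytes, which enter injured tissue, carry much CCR2, and nonclassical monocytes, which patrol vessels, carry much CX3CR1. Microglia, the resident macrophages of the brain, also carry CX3CR1 and little CCR2. CCRL2 is an atypical member that binds chemerin without the usual signaling, and CXCR4 is known for holding leukocytes in the bone marrow.

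The genes of the sorting antibodies were read first, a choice made outside the rule for named genes. Itgam, which encodes CD11b, lay between 144 and 215 CPM in the 9 libraries, and Ptprc, which encodes CD45, between 997 and 1695 CPM. Ly6g lay between 0 and 0.756 CPM. Itgax, which encodes CD11c, read 9.68, 13.2 and 10.9 CPM in sham blood, 19.4, 11.5 and 11.01 in stroke blood and 141, 78.9 and 85.6 in stroke brain, so the gene of a marker that the gate removed was higher in every brain library than in every blood library. The gate does not separate microglia from macrophages that came from blood, and microglia genes were high in the brain libraries, as given below.

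Libraries 1 and 3 of sham blood and library 1 of each stroke group stood apart from the others of their group. Sham blood 1 had a summed level of 5 erythroid genes of 925 CPM against 27660 and 24725 CPM in sham blood 2 and 3, and 6 platelet genes at 8.85 CPM against 260 and 366. Sham blood 3 had the highest sum of 12 neutrophil genes (3345 CPM against 1028 and 1257) and of 10 classical monocyte genes (39250 CPM against 19848 and 23332). Stroke blood 1 had the lowest sum of 6 eosinophil genes (3.09 CPM against 71.9 and 19.2). Stroke brain 1 had the lowest sum of 11 microglia genes (1619 CPM against 2371 and 4568) and the highest Nr4a1, an immediate early gene and regulator of nonclassical monocytes (3400 CPM against 735 and 917). Calls, fold changes and the ratio of Cx3cr1 to Ccr2 that turned on these libraries are given with and without them. Mean levels per kilobase and summed marker levels are given with all libraries only.

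Of the 9 genes, 6 lie on chromosome 9 of GRCm38, and 4 of them form a short cluster. In order these are Cxcr6 (ENSMUSG00000048521, chr9:123806475-123811760, plus strand), Ccr1 (ENSMUSG00000025804, chr9:123962124-123968692, minus strand), Ccr3 (ENSMUSG00000035448, chr9:124021972-124031689, plus strand) and Ccr2 (ENSMUSG00000049103, chr9:124101950-124113557, plus strand). Farther off on the same chromosome are Ccrl2 (ENSMUSG00000043953, chr9:111054486-111057519, minus strand) and Cx3cr1 (ENSMUSG00000052336, chr9:119901616-120069879, minus strand). Chromosome 1 holds Cxcr2 (ENSMUSG00000026180, chr1:74153989-74161246, plus strand) and Cxcr4 (ENSMUSG00000045382, chr1:128588199-128592293, minus strand), and Cxcr3 (ENSMUSG00000050232, chrX:101731535-101734269, minus strand) lies on chromosome X. All 9 are annotated as protein coding. Neighbors in the cluster did not share a pattern: Cxcr6 and Ccr1 were higher in stroke brain than in stroke blood, while Ccr2 was lower and Ccr3 overlapped between the groups.

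Sequence shared with other genes was searched for, since reads of it cannot be placed. For Ccr1, Ccr3, Ccrl2, Cxcr3, Cxcr4 and Cxcr6 no 75-base stretch of a transcript occurs in another gene. Cxcr2 shared 1.81% of its stretches with transcripts of many unrelated genes. Exons of Cx3cr1 overlap those of the antisense gene Gm33858 by 78 bases, and Gm33858 had 431 counts over the 9 libraries. How reads with several placements and reads of either strand were counted is not given in the sources used here, so a small share of Cx3cr1 and Cxcr2 counts is uncertain.

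Ccr2, the receptor for CCL2 that draws classical monocytes out of marrow and into tissue, was the most abundant of the 9 in every blood library. It read 1779, 1552 and 2343 CPM in sham blood 1, 2 and 3, 1805, 2309 and 1827 CPM in stroke blood, and 1186, 1343 and 1263 CPM in stroke brain. Every brain library was below every blood library, and both blood groups overlapped. In bulk RNA of sorted cells, fewer cells of a type and less RNA of a gene per cell cannot be told apart, here and in all that follows. Ccr1, a receptor for CCL3, CCL5 and other inflammatory chemokines, read 219, 117 and 306 CPM in sham blood, 111, 85.2 and 136 CPM in stroke blood, and 333, 402 and 306 CPM in stroke brain. The brain libraries were above all stroke blood libraries, but sham blood 3 lay at the level of stroke brain 3. Ccr3, the eotaxin receptor best known from eosinophils, read 14.9, 28.6 and 48.5 CPM in sham blood, 1.25, 44.9 and 15.1 CPM in stroke blood, and 13.4, 39.6 and 50.4 CPM in stroke brain. Its 3 groups overlapped, and the low value was that of stroke blood 1.

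Cx3cr1, the receptor for the membrane-bound chemokine fractalkine, read 271, 461 and 261 CPM in sham blood, 374, 534 and 531 CPM in stroke blood, and 407, 904 and 1105 CPM in stroke brain. Stroke brain 2 and 3 were above all blood libraries, and stroke brain 1 lay within the range of both blood groups. Ccrl2, the atypical chemerin-binding receptor, read 72.1, 17.5 and 12.2 CPM in sham blood, 31.1, 22.8 and 31.1 CPM in stroke blood, and 434, 223 and 237 CPM in stroke brain. All brain libraries were far above all blood libraries. Stroke brain 1 was the highest of the 9 libraries and sham blood 1 the highest in blood.

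Among the CXC receptors, Cxcr4, which binds CXCL12, read 11.97, 14.1 and 14.2 CPM in sham blood, 12.9, 11.4 and 17.9 CPM in stroke blood, and 85.7, 23.2 and 27.3 CPM in stroke brain. The brain was above the blood without overlap, and stroke brain 1 was more than the other brain libraries together. Cxcr6, the receptor for CXCL16 and a mark of many tissue-homing lymphocytes, read 0.292, 1.03 and 2.81 CPM in sham blood and 0, 1.02 and 0 CPM in stroke blood, where a count of 0 allows up to 0.145 CPM in library 1 and 0.162 CPM in library 3. In stroke brain it read 25.5, 10.0 and 13.7 CPM. Cxcr6 had 22 to 52 counts in 3 of the 6 blood libraries and 0 to 6 counts in the others, and every brain library was above every blood library. Cxcr3, the receptor for interferon-induced CXCL9, CXCL10 and CXCL11, read 3.99, 6.58 and 6.60 CPM in sham blood, 6.71, 7.14 and 7.99 CPM in stroke blood, and 14.4, 12.5 and 8.70 CPM in stroke brain. Its CPM values did not overlap between any pair of groups, but after TMM scaling, which corrects libraries for composition, stroke brain 3 (8.18) fell under stroke blood 3 (8.66). Cxcr2, the receptor that neutrophils use for CXCL1 and CXCL2, read 0.389, 1.03 and 7.74 CPM in sham blood, 0, 1.44 and 0.378 CPM in stroke blood, and 1.87, 0.442 and 0.139 CPM in stroke brain. It was low in 8 libraries and higher in sham blood 3.

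**Figure D1:**
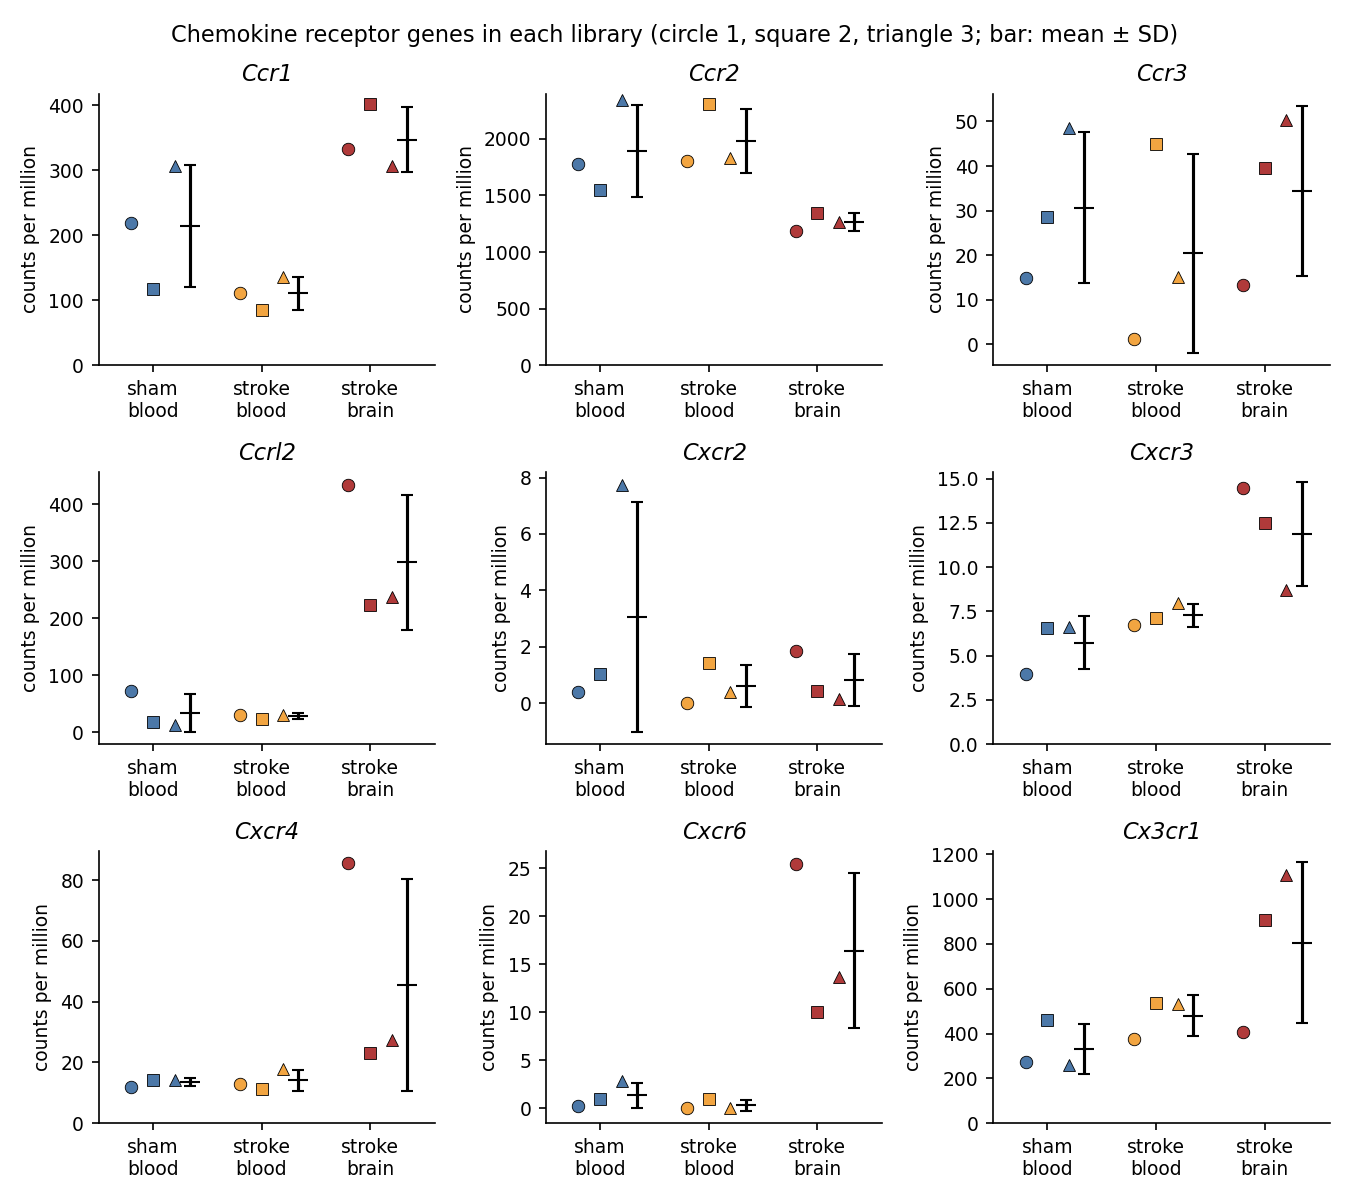
CPM (linear axes, 1 panel per gene) of the 9 chemokine receptor genes in 3 sham blood, 3 stroke blood and 3 stroke brain libraries, with each library as a point and the mean ± SD of a group (n = 3) as a bar. Ccrl2, Cxcr4 and Cxcr6 are higher in every brain library than in every blood library, Ccr2 is lower, and stroke brain 1 is the highest library for Ccrl2 (434), Cxcr4 (85.7) and Cxcr6 (25.5).

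Between the 9 receptor genes, levels were compared per length, as CPM per kilobase of exon (mean ± SD, n = 3). In the other lists the most abundant gene was named by CPM, without regard to length. In sham blood Ccr2 led with 280 ± 60.3 per kilobase, and Ccr1 (75.5 ± 33.4) and Cx3cr1 (73.5 ± 25.1) followed with overlapping ranges. Then came Ccrl2 (13.1 ± 12.8), Ccr3 (9.38 ± 5.16) and Cxcr4 (7.44 ± 0.710), each overlapping the next, and at the end Cxcr3 (3.31 ± 0.868), Cxcr2 (1.00 ± 1.34) and Cxcr6 (0.715 ± 0.671). The place of Ccrl2 rested on sham blood 1 (27.7 per kilobase, against 6.75 and 4.71 in sham blood 2 and 3). Ccrl2 was above Ccr3 in 1 of the 3 libraries. The Cxcr2 mean rested on sham blood 3 (2.54 per kilobase, against 0.128 and 0.339 in sham blood 1 and 2). Stroke blood had a clearer order per kilobase, with Ccr2 at 293 ± 42.1, Cx3cr1 at 107 ± 20.3, Ccr1 at 39.0 ± 8.91 and Ccrl2 at 10.9 ± 1.84, all with ranges apart. Below them Cxcr4 (7.79 ± 1.88 per kilobase, overlapping Ccrl2), Ccr3 (6.24 ± 6.83) and Cxcr3 (4.20 ± 0.376) overlapped, and Cxcr2 (0.199 ± 0.245) and Cxcr6 (0.176 ± 0.305) were last.

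In stroke brain the top of the order was shared. Ccr2 (187 ± 11.6 per kilobase) and Cx3cr1 (179 ± 79.7) overlapped, as did Cx3cr1 and Ccr1 (122 ± 17.5), and Ccr1 and Ccrl2 (115 ± 45.4). Cxcr4 followed at 25.1 ± 19.3 per kilobase, Ccr3 at 10.5 ± 5.82, Cxcr6 at 8.50 ± 4.18 and Cxcr3 at 6.87 ± 1.69, each overlapping its neighbor in that order, and Cxcr2 was last at 0.268 ± 0.303. The Cxcr4 mean rested on stroke brain 1 (47.4 per kilobase, against 12.8 and 15.1 in stroke brain 2 and 3). Ccr2 made 60.0 ± 3.07% of the summed per-kilobase level of the 9 genes in sham blood, 62.6 ± 4.11% in stroke blood and 28.6 ± 1.16% in stroke brain. Ccrl2 made 2.94 ± 2.92%, 2.38 ± 0.633% and 17.7 ± 7.82% of it in the same order. The shares of these genes did not overlap between the brain and either blood group.

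The sum of the 9 genes moved less than its makeup, and more on one scale than on the other. Per kilobase it was 442, 401 and 548 in sham blood, 413, 524 and 467 in stroke blood, and 624, 664 and 674 in stroke brain, with the brain above all blood libraries. CPM gives long Ccr2 transcripts more weight than the per-kilobase scale. As CPM by library size, the sum was 2525 ± 422 in sham blood, 2642 ± 344 in stroke blood and 2823 ± 280 in stroke brain. As CPM after TMM scaling, it was 2582 ± 457, 2782 ± 331 and 2628 ± 314 in the same order. The groups overlapped with and without TMM scaling. Without Ccr2 the sum of the other 8 genes per kilobase was 184 in sham blood, 175 in stroke blood and 467 in stroke brain. The per-kilobase sums carry no TMM scaling. Brain libraries had TMM factors of 1.06 to 1.10 and blood libraries 0.923 to 0.997.

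**Figure D2:**
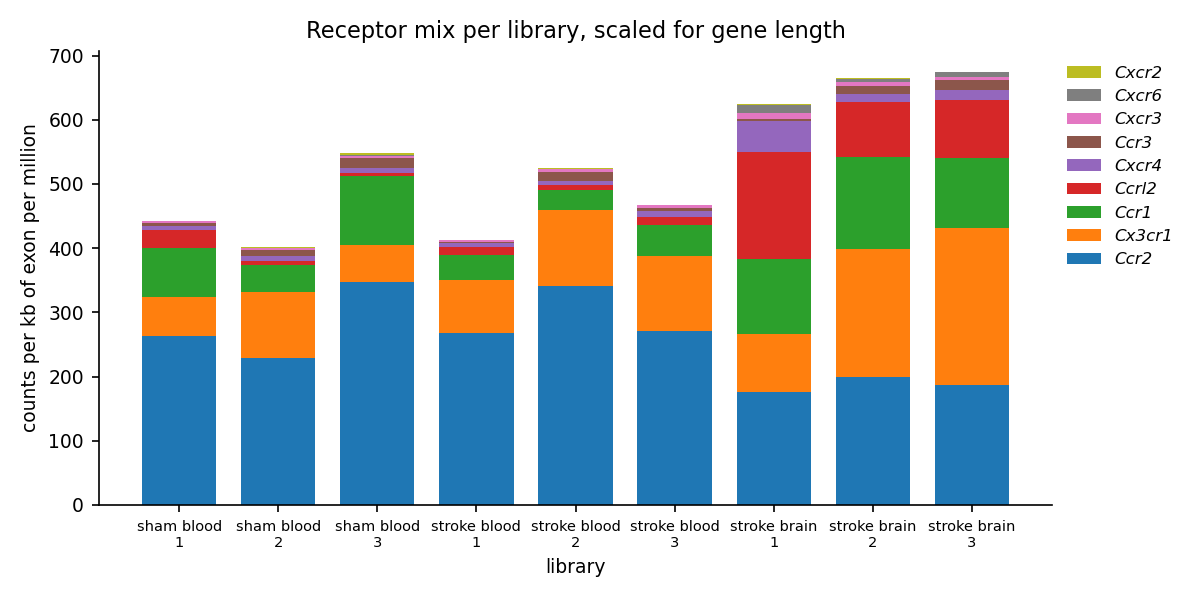
Stacked bars of CPM per kilobase of exon for the 9 receptor genes in each of the 9 libraries (linear axis from 0). Ccr2 fills most of each blood bar and between 27.7% and 29.9% of each brain bar, where Cx3cr1, Ccr1 and Ccrl2 take up more of the height, and Ccrl2 is largest in stroke brain 1.

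The balance of Cx3cr1 to Ccr2 was taken inside each library as the log2 ratio of their per-kilobase levels, which needs no scaling between libraries. It was -2.13, -1.16 and -2.58 in sham blood 1, 2 and 3, -1.68, -1.53 and -1.20 in stroke blood, and -0.96, 0.02 and 0.39 in stroke brain. Every brain library was shifted toward Cx3cr1 relative to every blood library, and stroke brain 2 and 3 had the genes near equal levels, whereas both blood groups overlapped. Group means were -1.96 ± 0.72 in sham blood, -1.47 ± 0.25 in stroke blood and -0.18 ± 0.70 in stroke brain (SD, n = 3). Stroke brain was 1.29 above stroke blood on the log2 scale, a ratio 2.44-fold higher (exact two-sided permutation test, p = 0.1, the smallest p that 3 against 3 libraries allow), and 1.78 above sham blood (3.42-fold; exact permutation p = 0.1). Stroke blood differed from sham blood by 0.49 (exact permutation p = 0.4). Without stroke brain 1, the library nearest to blood, the differences of brain from stroke blood and sham blood were 1.67 and 2.16. With the longest transcript in place of all exons the group means were -2.19, -1.70 and -0.42, and stroke brain 2 read -0.22, so the point of equal levels depends on the length used.

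**Figure D3:**
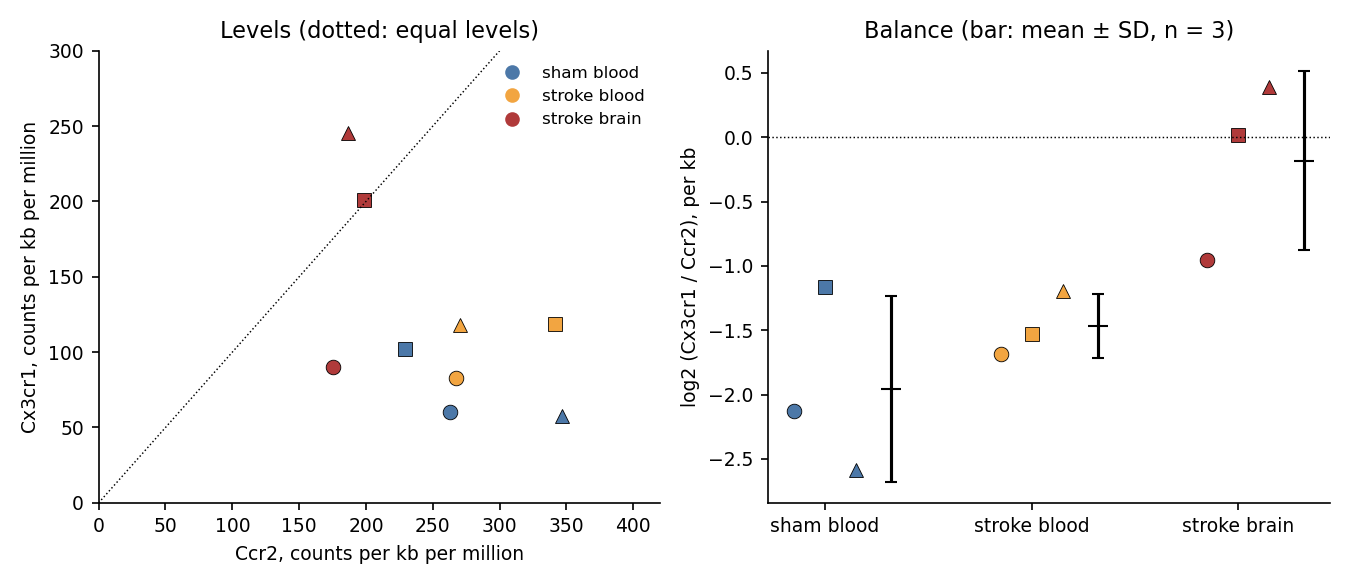
Left, Cx3cr1 against Ccr2 in CPM per kilobase in each of the 9 libraries, with a dotted line of equal levels; right, the log2 ratio of Cx3cr1 to Ccr2 per library with the mean ± SD of each group (n = 3). Ratios of brain libraries run from -0.96 to 0.39 and those of blood libraries from -2.58 to -1.16.

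Genes of other cells and states changed along with that balance. The summed level of the 11 microglia markers was 166, 178 and 248 CPM in sham blood, 176, 218 and 150 CPM in stroke blood and 1619, 2371 and 4568 CPM in stroke brain, with Sall1, Siglech, Olfml3 and Slc2a5 at or below the floor in stroke blood. Stroke brain 1, 2 and 3 had the same order for Cx3cr1 (407, 904 and 1105 CPM) and for the microglia sum. The 10 classical monocyte markers, led by Chil3, summed to 19848, 23332 and 39250 CPM in sham blood, 20214, 19244 and 18502 CPM in stroke blood and 7380, 7892 and 7852 CPM in stroke brain, and Ccr2 was lower in the brain as well. The 11 nonclassical monocyte markers, led by Nr4a1, summed to 1565, 1792 and 1354 CPM, 2092, 2209 and 1719 CPM, and 5313, 2233 and 2635 CPM in the same order of libraries. Nr4a1 itself read 302, 267 and 191 CPM in stroke blood and 3400, 735 and 917 CPM in stroke brain, and carried the higher sum relative to stroke blood. The median log2 fold change of this list against stroke blood was -0.06, with 3 genes higher and 4 lower at an unadjusted p under 0.05 with edgeR. The part of microglia or of monocyte subsets in the Cx3cr1 and Ccr2 levels was not tested.

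To see how receptor genes differ between monocytes/macrophages of the injured brain and those still in blood, stroke brain was compared with stroke blood. Of the 9 genes, 8 passed the filter on low counts and Cxcr2 was not tested. Ccrl2, Cxcr6, Cxcr4 and Ccr1 were differentially expressed genes (DEGs: absolute log2 fold change above 1 and adjusted p below 0.05 with edgeR), all higher in the brain, and no receptor gene was a DEG lower in the brain. That made 4 of 8 tested, where 21.0% of the 13189 genes tested were DEGs, 13.1% higher and 7.86% lower. The groups did not overlap in CPM for 6 of the 8, against 49.2% of all genes tested. Cxcr6 passed the filter through its brain libraries alone, so these counts are a description and no support for a shift of the group. The median log2 fold change was 1.05 over the 8 genes and 0.06 over all genes tested. Scaling by library size alone moved the median of all genes by 0.15 in this comparison and by 0.12 against sham blood, and none of the called receptor genes lost its call under it.

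Ccrl2 was 9.40-fold higher in stroke brain than in stroke blood (log2 fold change 3.23, SE 0.29, adjusted p = 7.78e-05 with edgeR). Cxcr6 had a fitted log2 fold change of 5.37 (SE 1.00, adjusted p = 0.00384 with edgeR), a size that depends on the 22 counts of stroke blood 2, since the other stroke blood libraries had 0, and without stroke blood 2 the fitted value was 11.31, which is no bound, and without stroke blood 1 it was 4.78. Ccr1 was 2.81-fold higher (log2 fold change 1.49, SE 0.21, adjusted p = 0.000915 with edgeR). These 3 genes were called in all 13 alternative settings that were run, with every library left out in turn among them. Cxcr4 was 2.87-fold higher (log2 fold change 1.52, SE 0.47, adjusted p = 0.0344 with edgeR) and depended on single libraries. Its log2 fold change was 0.70 (adjusted p = 0.0728) without stroke brain 1, 1.42 (0.122) without stroke blood 1, 1.34 (0.127) without stroke blood 2 and 1.73 (0.0716) without stroke blood 3, and over all alternatives its edgeR or DESeq2 adjusted p ran from 0.00217 to 0.127.

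Ccr2 read 1.74-fold lower in stroke brain (log2 fold change -0.80, SE 0.16, adjusted p = 0.00477 with edgeR), a difference larger than the spread between libraries but short of the fold threshold. Cx3cr1 had a log2 fold change of 0.59 (SE 0.33, adjusted p = 0.196 with edgeR), and without stroke brain 1 it was 0.92 (adjusted p = 0.00890, of a range from 0.00890 to 0.559 over its alternatives). Cxcr3 had 0.55 (SE 0.28, adjusted p = 0.170 with edgeR). Ccr3 had 0.61 (SE 0.88, adjusted p = 0.637 with edgeR), where the error exceeded the difference, and its log2 fold change was 0.04 without stroke blood 1, 1.85 without stroke blood 2 and 1.00 without stroke brain 1.

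**Figure D4:**
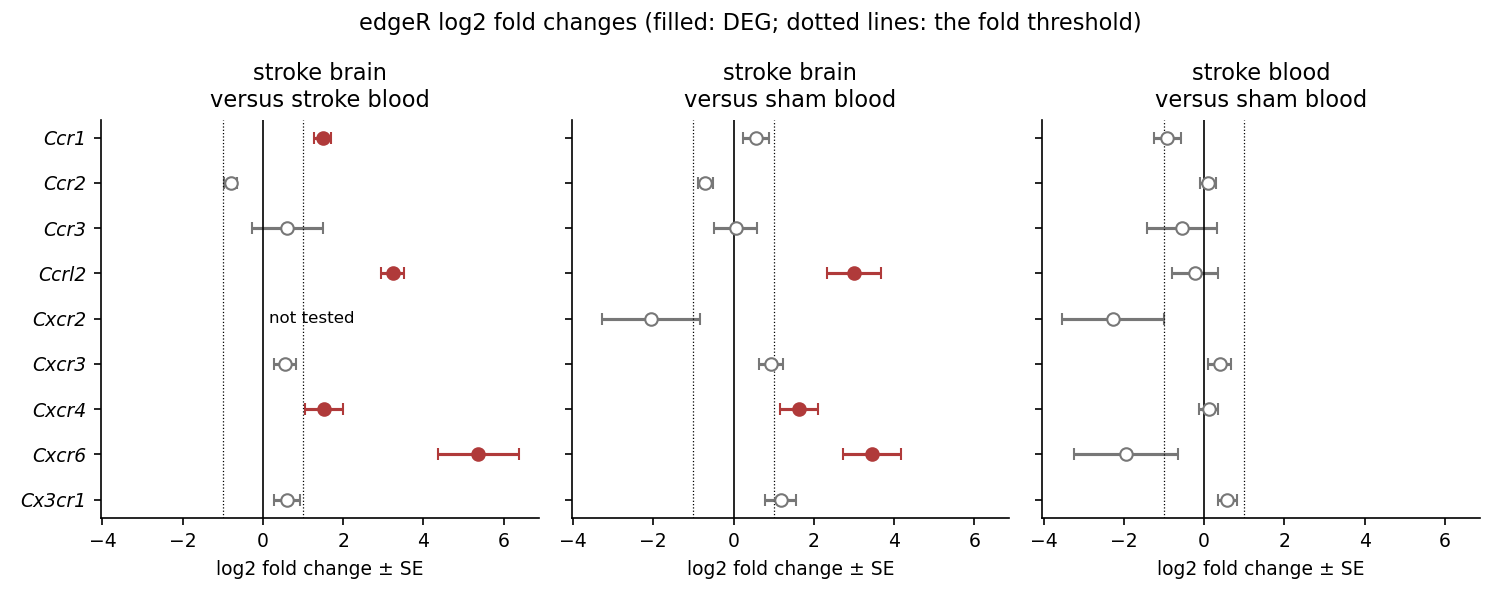
Log2 fold changes ± SE from edgeR (linear axis) of the 9 receptor genes in the 3 comparisons of 3 against 3 libraries, filled where the gene was a DEG, with dotted lines at the fold threshold. Cxcr2 was not tested in stroke brain versus stroke blood. Ccrl2, Cxcr4 and Cxcr6 are filled in both comparisons of stroke brain, Ccr1 only against stroke blood, and no gene is filled between stroke blood and sham blood.

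The promoters of the 4 genes that were higher in stroke brain than in stroke blood are shown to let the reader see whether genes that moved together share short motifs. All 9 genes matched the RefSeq promoter table (GRCm38.p6). The 250 bases before the start site were searched on both strands for GAGGAA (an ETS-type sequence as bound by PU.1, a regulator of myeloid genes), TGANTCA (AP-1), GGGNNTTCC (an NF-kB type), TTGCNNAA (C/EBP) and ACGTG (the core of the hypoxia response element). Matches are in capitals, with the sequences written 5′ to 3′ along the gene.
Ccrl2 chr9:111057519-111057768, minus strand: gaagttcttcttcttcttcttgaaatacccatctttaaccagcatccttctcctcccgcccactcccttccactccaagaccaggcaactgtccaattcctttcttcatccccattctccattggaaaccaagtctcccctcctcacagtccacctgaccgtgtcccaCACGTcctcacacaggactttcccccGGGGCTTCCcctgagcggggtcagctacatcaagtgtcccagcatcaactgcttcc
Ccr1 chr9:123968693-123968942, minus strand: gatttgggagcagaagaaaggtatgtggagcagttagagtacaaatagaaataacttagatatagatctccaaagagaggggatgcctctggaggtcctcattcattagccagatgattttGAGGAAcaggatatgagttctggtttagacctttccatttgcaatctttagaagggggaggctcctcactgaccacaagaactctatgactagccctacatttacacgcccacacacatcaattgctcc
Cxcr4 chr1:128592300-128592549, minus strand: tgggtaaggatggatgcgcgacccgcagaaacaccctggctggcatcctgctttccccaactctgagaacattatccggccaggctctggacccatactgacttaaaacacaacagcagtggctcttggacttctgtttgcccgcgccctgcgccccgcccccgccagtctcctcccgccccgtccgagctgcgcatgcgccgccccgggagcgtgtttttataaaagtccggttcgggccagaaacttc
Cxcr6 chr9:123806227-123806476, plus strand: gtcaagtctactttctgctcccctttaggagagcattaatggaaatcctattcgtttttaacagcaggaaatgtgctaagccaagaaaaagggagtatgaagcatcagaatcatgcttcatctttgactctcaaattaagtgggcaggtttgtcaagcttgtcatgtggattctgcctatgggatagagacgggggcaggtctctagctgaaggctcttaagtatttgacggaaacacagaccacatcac

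Ccrl2 had 1 GGGNNTTCC match, from 56 to 48 bases before the start, and 1 ACGTG match on the other strand, from 82 to 78 bases before it. This is the first of 3 RefSeq start sites for Ccrl2. The windows of the other 2 overlap each other and share 1 ACGTG match, which lies at another place than that of the first window. Ccr1 had 1 GAGGAA match, from 129 to 124 bases before the start, and Cxcr4 and Cxcr6 had no match to any of the 5 motifs in this window. Of all 32851 promoter windows of this length, 23.3% held GAGGAA, 6.75% TGANTCA, 4.98% GGGNNTTCC, 9.56% TTGCNNAA and 16.6% ACGTG. No motif was common to the 4 genes. Of the receptor genes not called, Ccr3, Cxcr2 and Cxcr3 each held 1 GAGGAA match, Ccr3 also 1 TGANTCA match, and Ccr2 and Cx3cr1 none of the 5. A match to these letters is a description and not a bound site.

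Stroke brain was also compared with sham blood, to set the brain cells against blood that had not seen a stroke. This comparison shares the 3 brain libraries with the one before. Ccrl2, Cxcr4 and Cxcr6 were DEGs and higher in the brain, 3 of the 9 genes, all of which were tested, where 13.4% of 13020 genes were DEGs, 9.75% higher and 3.67% lower. Groups did not overlap in CPM for 5 of the 9, against 41.7% of all genes tested. The median log2 fold change was 0.93 over the 9 genes and 0.01 over all genes tested. Cxcr6 had 6, 22 and 52 counts in sham blood and passed the filter with the help of its brain libraries. Counts of calls and the median thus describe the 9 genes and are no support for a shift of the group. Ccrl2 was 7.98-fold higher (log2 fold change 3.00, SE 0.67, adjusted p = 0.0195 with edgeR). Cxcr6 was 10.9-fold higher (log2 fold change 3.45, SE 0.72, adjusted p = 0.0157 with edgeR). Cxcr4 was 3.08-fold higher (log2 fold change 1.62, SE 0.47, adjusted p = 0.0477 with edgeR).

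These calls and sizes against sham blood depended on single libraries. Ccrl2 had a log2 fold change of 4.21 without sham blood 1, and Cxcr6 had 4.50 without sham blood 3. Without sham blood 2 none of the 3 genes was called by edgeR (Ccrl2 log2 fold change 2.66, adjusted p = 0.0660; Cxcr6 3.27, 0.0611; Cxcr4 1.64, 0.127), while 1310 genes were DEGs. Without sham blood 3 Cxcr6 was the 1 gene called (Ccrl2 2.59, 0.0539; Cxcr4 1.67, 0.125), and the count of DEGs over all genes fell from 1748 to 1146. Cxcr4 was also not called without sham blood 1 (1.56, 0.120), stroke brain 1 (0.80, 0.0308) or stroke brain 3 (1.88, 0.0538). Over all alternatives the adjusted p ran from 0.00147 to 0.0660 for Ccrl2, from 8.38e-07 to 0.0611 for Cxcr6 and from 0.00233 to 0.127 for Cxcr4.

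Cx3cr1 was 2.25-fold higher in stroke brain than in sham blood (log2 fold change 1.17, SE 0.38, adjusted p = 0.0654 with edgeR) and so just missed the call. DESeq2 called it (log2 fold change 1.17, adjusted p = 0.00944), as did edgeR without stroke brain 1 (1.50, 0.0131), without the filter on low counts (1.16, 0.0317) and in a joint fit of all 9 libraries (1.18, 0.0356). It was thus called in 4 of 13 alternatives, and its adjusted p ran from 0.00944 to 0.196 over the alternatives. Ccr2 had a log2 fold change of -0.71 (SE 0.18, adjusted p = 0.0333 with edgeR), again under the fold threshold. Cxcr3 had 0.93 (SE 0.31, adjusted p = 0.0704 with edgeR). Ccr1, a DEG against stroke blood, had 0.57 here (SE 0.32, adjusted p = 0.256 with edgeR), and whether its brain difference depends on the blood group was not tested apart from the comparison of blood groups below. Ccr3 had 0.05 (SE 0.54, adjusted p = 0.955 with edgeR). Cxcr2 had -2.05 (SE 1.22, adjusted p = 0.273 with edgeR), which was 0.07 without sham blood 3.

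Stroke blood and sham blood were compared to see whether receptor genes differ in circulating monocytes after stroke. No receptor gene of the 9 tested was a DEG with edgeR, 2 had an unadjusted p under 0.05, and DESeq2 called 0. Over all 12664 genes tested, 0.00790% were DEGs, which is 1 gene, Serpinb10 (log2 fold change 1.84, adjusted p = 0.0231 with edgeR), named here after its value was seen. At an unadjusted p under 0.05 there were 1581 genes, and DESeq2 called 127. With a library left out the count of DEGs was 16 without sham blood 1, 2 without sham blood 3 and 0 without any other. The sham blood libraries are those of the comparison above, and the stroke blood libraries those of the first. Ccr1 was the lower of the 2 genes past the unadjusted threshold, with a log2 fold change of -0.91 (SE 0.33, unadjusted p = 0.0218, adjusted p = 0.339 with edgeR), and its groups overlapped, since sham blood 2 (117 CPM) lay among the stroke blood libraries. Cx3cr1 was the higher, with 0.58 (SE 0.25, unadjusted p = 0.0427, adjusted p = 0.390 with edgeR), and sham blood 2 (461 CPM) again lay among the stroke blood libraries.

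The other receptor genes differed between blood groups by less than about 2 standard errors. Log2 fold changes were 0.10 for Ccr2 (SE 0.20), 0.11 for Cxcr4 (SE 0.24), -0.23 for Ccrl2 (SE 0.57) and -0.55 for Ccr3 (SE 0.88). Cxcr3 had 0.39 (SE 0.28) and was the 1 gene of 9 whose groups did not overlap in CPM, against 18.7% of all genes tested. Cxcr2 (-2.27, SE 1.26) and Cxcr6 (-1.94, SE 1.30) rested on few counts, with the highest values in sham blood 3. Leaving out a library moved Cxcr2 from -3.98 (without stroke blood 2) to -0.19 (without sham blood 3), Cxcr6 from -7.77 to -0.89 (without the same libraries) and Ccr3 from -1.88 (without stroke blood 2) to -0.01 (without stroke blood 1). Ccrl2 changed direction without sham blood 1, to 0.98, Ccr2 without sham blood 2 or stroke blood 2 (both -0.04), and Cxcr4 without stroke blood 3 (-0.13). None of these differences passed the test, and at this number of libraries a p that misses the threshold does not show equal levels.

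In blood, libraries with high or low Ccr3 and Cxcr2 also had high or low levels of granulocyte genes. The 6 eosinophil markers, led by Alox15, summed to 20.1, 48.1 and 113 CPM in sham blood, 3.09, 71.9 and 19.2 CPM in stroke blood and 321, 210 and 184 CPM in stroke brain. Within each blood group, Ccr3 and this sum had the same order of libraries, and in the brain the orders were reversed, though not for each marker. Siglecf, which encodes an eosinophil surface lectin, read 10.98, 16.1 and 21.9 CPM in stroke brain, the order of Ccr3, and Prg2, of eosinophil granules, read 141, 34.2 and 25.9 CPM. Epx was at 0 in all sham blood libraries and Ear6 in all stroke blood libraries, and both were highest in stroke brain 1 (20.3 and 18.2 CPM). Of the 6 markers 3 were DEGs higher in brain than in stroke blood (13.1% of all genes were) and 4 higher than in sham blood (9.75% of all genes), while Ccr3 was not. Here and in the lists below, genes near 0 in blood passed the filter through the brain libraries alone, so counts of calls only describe a list.

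The 12 neutrophil markers, led by Mmp8, summed to 1028, 1257 and 3345 CPM in sham blood, 649, 1135 and 870 CPM in stroke blood and 1712, 1264 and 1881 CPM in stroke brain. Sham blood 3 was highest for this sum and for Cxcr2 (7.74 CPM), and stroke blood 1 was lowest for both. Ly6g, the gene of the marker that the sort removed, had at most 0.756 CPM in any library. Against stroke blood, 7 of 11 tested markers were higher and 1 lower in the brain, and against sham blood 4 were higher and 1 lower, where over all genes 13.1% were higher and 7.86% lower, and 9.75% and 3.67%. Mmp8, which led the sum, was lower in every brain library (117 to 154 CPM) than in every blood library (396 to 1274 CPM). The part of eosinophils or neutrophils in the Ccr3 and Cxcr2 levels was not tested.

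Lymphoid markers are given beside Cxcr3 and Cxcr6, receptors also known from T and NK cells. The 10 T cell markers, led by Lck, summed to 81.9, 174 and 89.9 CPM in sham blood, 91.0, 56.6 and 39.9 CPM in stroke blood and 224, 187 and 215 CPM in stroke brain, and 6 of 10 were DEGs higher in brain than in stroke blood (13.1% over all genes) and 1 higher than in sham blood (9.75% over all genes). The 9 NK cell markers, led by Gzma, summed to 318, 826 and 447 CPM, 1098, 441 and 322 CPM, and 848, 1740 and 1821 CPM in the same order, and 1 of 9 was higher in brain than in stroke blood and 3 than in sham blood, beside the same shares. Cxcr6 was highest in stroke brain 1 and Cxcr3 too. Among brain libraries the T cell sum was also highest there (224 CPM against 187 and 215), whereas the NK sum was lowest there. The part of T or NK cells in the Cxcr3 and Cxcr6 levels was not tested.

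Remaining marker lists covered other cells, of which the gate should remove CD11c+ dendritic cells and cells without CD45, as erythroid, neural and endothelial cells mostly are. The shares over all genes were 13.1% higher and 7.86% lower against stroke blood, and 9.75% and 3.67% against sham blood. Of 7 dendritic cell genes, led by Cd209a, 6 were higher in brain than in stroke blood and 4 than in sham blood, with sums of 72.7 to 325 CPM in blood and 582 to 723 CPM in brain. Of 7 tested border-associated macrophage genes, led by Pf4, 5 were higher in the brain in both comparisons, and Lyve1 and Folr2 were at or below the floor in blood. Pf4 was not among these 5. Its mean was 73.1 CPM in sham blood, 84.2 CPM in stroke blood and 56.7 CPM in stroke brain. All 11 microglia genes were higher in the brain in both comparisons. Classical monocyte genes were lower, 9 of 10 against stroke blood and 8 against sham blood, and of 11 nonclassical genes 2 and 3 were higher. All 6 platelet genes (led by Itga2b) and all 5 erythroid genes (led by Hbb-bs) were lower in the brain in both comparisons, with erythroid sums of 925 to 27660 CPM in blood and 3.57 to 12.4 CPM in brain. B cell genes, led by Ighm, gave 0 of 5 against stroke blood by edgeR (1 at unadjusted p under 0.05, 0 by DESeq2) and 4 of 6 lower against sham blood. The 1 tested basophil and mast cell gene of 6 gave 0 calls by edgeR and 0 at an unadjusted p under 0.05 in both brain comparisons, and DESeq2, which filters genes in its own way, called 1 gene of the whole list higher in each. Of 7 neural genes 2 were tested, with 0 calls by edgeR and 1 of them, Mbp, lower at an unadjusted p under 0.05 in each brain comparison. DESeq2 called 1 gene of the whole list higher against stroke blood, a direction that neither tested gene had with edgeR, and 0 against sham blood. Of 3 tested endothelial genes of 5, Pecam1 was higher in brain than in stroke blood (log2 fold change 1.01), and Flt1 (-0.62) and Ly6c1 (-1.43) were lower at an unadjusted p under 0.05 but not called. Against sham blood edgeR called 0, with 1 at an unadjusted p under 0.05 and 0 by DESeq2. Gata2, Mbp and Flt1 were the most abundant of these 3 lists, and Aqp4, Mog and Cldn5 were at or below the floor in all groups. Between stroke and sham blood edgeR called 0 of 94 marker genes tested, with 24 at an unadjusted p under 0.05 (12.5% over all genes) and 9 by DESeq2. Of these, 20 and 8 were lower in stroke blood, among them 7 of 10 T cell genes (4 by DESeq2) and 4 of 6 B cell genes (3 by DESeq2).

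Many, but not all, genes of the ligands for these receptors were higher in the brain libraries. Of 23 ligand genes, 18 were tested against stroke blood, and 14 were DEGs higher and 2 lower (13.1% and 7.86% over all genes), with a median log2 fold change of 3.33 (3.02 with Cxcl11 and Cx3cl1 set to their lower bound) against 0.06 over all genes. Ccl7, Ccl12, Cxcl3, Cxcl11 and Cx3cl1 passed the filter through their brain libraries alone, so count and median describe the list and support no shift of it. Cxcl16, the ligand of CXCR6, read 7.78, 4.56 and 2.38 CPM in sham blood, 6.18, 7.65 and 4.75 CPM in stroke blood and 273, 277 and 235 CPM in stroke brain (log2 fold change against stroke blood 5.25, SE 0.22, adjusted p = 1.3e-06 with edgeR). It was thus near even among brain libraries, where Cxcr6 was not. Cx3cl1, which encodes fractalkine, had 0 counts in all 6 blood libraries and 7.94, 4.82 and 5.27 CPM in stroke brain, at least 40.5-fold higher than stroke blood when set against 3 counts in each library.

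Genes of CCR2 ligands read higher in the brain libraries than in the blood libraries. Ccl2 read 23.2, 9.82 and 6.44 CPM in sham blood, 9.26, 4.96 and 17.4 CPM in stroke blood and 140, 355 and 304 CPM in stroke brain (log2 fold change against stroke blood 4.50, SE 0.51, adjusted p = 0.000320 with edgeR). Ccl7 had 5 counts in the 3 stroke blood libraries together and 84.1, 187 and 177 CPM in the brain, a ratio of 1861 with a 95% counting interval from 797 to 5733. Ccl12 had 5 counts in stroke blood and 29.6, 40.8 and 66.9 CPM in the brain, a ratio of 565 (242 to 1742). Ccl8 had 0 counts in stroke blood and 0.213, 10.5 and 41.0 CPM in the brain, at least 116-fold higher on average, but stroke brain 1 was near the floor. In each of these 4 genes stroke brain 1 was the lowest brain library, while Ccr2 was lower in the brain than in blood.

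For CCR1 and CCR3, ligand genes went both ways. Against stroke blood, Ccl3 (log2 fold change 3.12), Ccl4 (3.55), Ccl5 (1.33) and Ccl24 (3.63) were higher in the brain, Ccl9 was lower (-1.33, SE 0.15, adjusted p = 0.000356 with edgeR), and Ccl6, the most abundant of the list at 1453 to 3358 CPM, was not called (-0.62). Of the CXCR2 ligands, Cxcl2 was higher (2.80), Cxcl3 had a ratio of 73.4 (24.8 to 358) on 3 counts in stroke blood, Ppbp, a platelet chemokine, was lower (-6.40), Cxcl1 was not called (1.22) and Cxcl5 was not tested. The CXCR3 ligands Cxcl9 (2.47) and Cxcl10 (1.45) were higher, and Cxcl11 was at least 7.61-fold higher. The CXCR4 ligand Cxcl12 had 0 counts in blood and 17.2, 0.354 and 0.0463 CPM in stroke brain, so its signal came from stroke brain 1, the library with the most Cxcr4. Ccl11 and Rarres2, which encodes chemerin, were at or below the floor in every library.

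**Figure D5:**
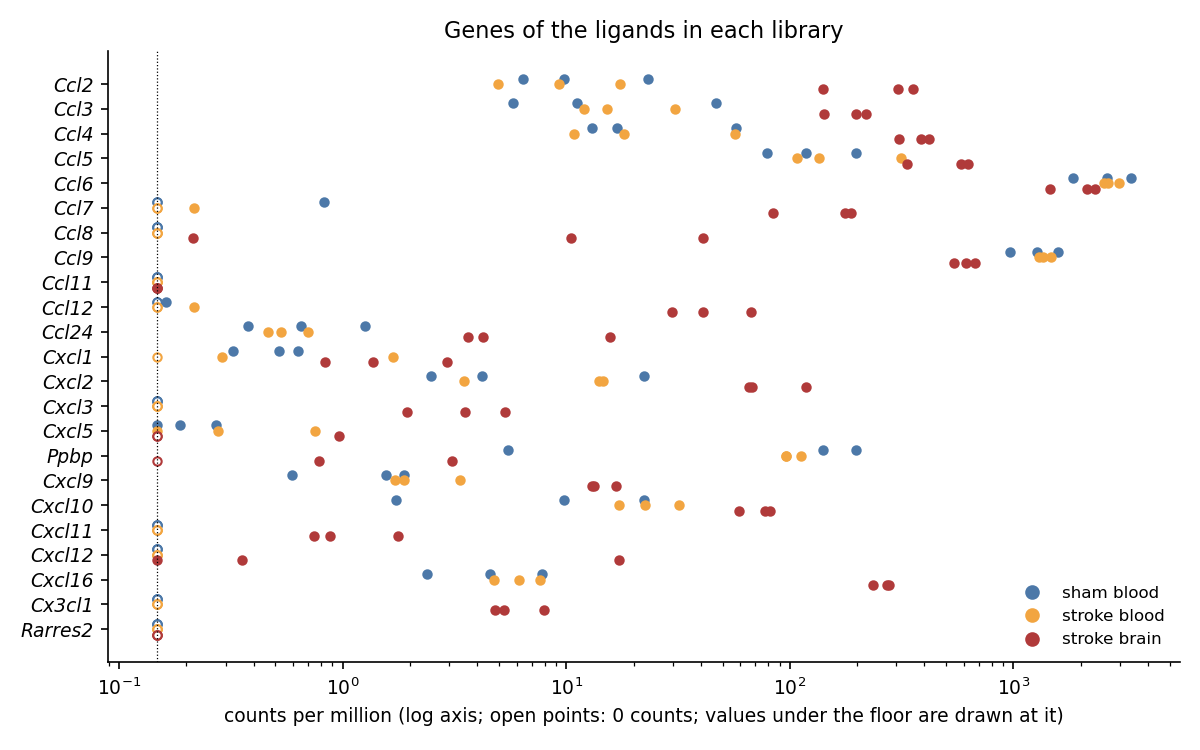
CPM (log axis) of the 23 ligand genes in each of the 9 libraries, with open points for 0 counts and values under the floor drawn at a dotted line for 3 counts. Points of the 3 brain libraries lie to the right of all blood points for Cxcl16 (235 to 277 CPM), Ccl2 and Cx3cl1, and to the left for Ccl9.

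Against sham blood the ligand list gave the same numbers, 14 higher and 2 lower of 18 tested (9.75% and 3.67% over all genes), again with genes that only the brain libraries brought past the filter, and with a median of 3.26 (3.11 with Cxcl3, Cxcl11 and Cx3cl1 at their bounds). Between stroke and sham blood 0 of 13 ligand genes were called by edgeR, 0 had an unadjusted p under 0.05 and DESeq2 called 0. Ligand genes of blood monocytes therefore gave no difference that these libraries could show.

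Other chemokine receptor genes were read beside the 9. Ccr7, which guides dendritic cells to lymph nodes, read 11.9, 45.5 and 28.6 CPM in sham blood, 6.18, 8.72 and 5.40 CPM in stroke blood, and 185, 111 and 104 CPM in stroke brain (log2 fold change against stroke blood 4.14, SE 0.29, adjusted p = 2.7e-05 with edgeR). It was higher in all brain than in all blood libraries. Ccr7 was also called higher than in sham blood (2.10), as was Cmklr1, the signaling chemerin receptor (1.03, adjusted p = 0.0365 with edgeR). Cmklr1 was not called against stroke blood (-0.32), where stroke blood 3 had the highest value of the 9 libraries (17.5 CPM). Ccr6, Ccr9, Cxcr5 and Xcr1 were tested and not called in any comparison. Ccr8 was not called against stroke blood and not tested in the others, and Ccr1l1, Ccr4, Ccr10, Cxcr1, Ackr1, Ackr2, Ackr3 and Ackr4 were not tested. Ackr3, which binds CXCL12, had 0 counts in blood and 1.81, 0.0442 and 0.833 CPM in the brain. Between stroke and sham blood edgeR called 0 of 7, with 4 at an unadjusted p under 0.05 and 1 by DESeq2.

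Downstream of the receptors, many genes differed by less than the fold threshold. Of 28 genes for receptor signaling and desensitization, 3 were DEGs higher and 1 lower in brain than in stroke blood (13.1% and 7.86% over all genes), with a median log2 fold change of 0.08. Groups did not overlap for 20 of the 28 (49.2% over all genes), and 19 had an unadjusted p under 0.05 with edgeR (42.2% over all genes). Rgs1, which shortens signals of inhibitory G proteins, read 1.65, 2.21 and 1.46 CPM in sham blood, 0.868, 1.16 and 0.756 CPM in stroke blood and 344, 164 and 137 CPM in stroke brain (log2 fold change 7.68, SE 0.44, adjusted p = 1e-05 with edgeR). Rgs1 was highest in stroke brain 1, as were Ccrl2, Cxcr4 and Cxcr6. Rgs16, of the same family, had 3 counts in stroke blood and a ratio of 31.9 (10.6 to 157). The G protein subunit genes Gnb1 (2.30) and Gnb2 (-1.55) changed in opposite directions. Against sham blood Rgs1 (6.79), Gnb1 (1.15), Grk3, a receptor kinase (1.08), and Rgs16 were higher. Gnai2, the inhibitory G protein gene that was most abundant in the list, was not called in any comparison. Between stroke and sham blood edgeR called 0 of 27, with 2 at an unadjusted p under 0.05 and 1 by DESeq2.

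Receptors for other attractants were also read. Of 14 tested, 7 were higher and 1 lower in brain than in stroke blood (13.1% and 7.86% over all genes). The 6 with the largest change were C3ar1 for complement C3a (log2 fold change 4.91), Hcar2 (3.96), Gpr84 (3.57), C5ar1 for C5a (2.75), Ptafr for platelet-activating factor (2.64) and C5ar2 (2.20). Fpr2, a formyl peptide receptor, was lower (-1.92, SE 0.21, adjusted p = 0.000290 with edgeR). Against sham blood 5 were higher (9.75% over all genes), C3ar1 (5.03), Gpr84 (3.71), C5ar1 (2.08), Ptafr (1.98) and C5ar2 (1.88), and Fpr2 was lower (-2.02), where 3.67% of all genes were. Between stroke and sham blood edgeR called 0 of 15, with 5 at an unadjusted p under 0.05 and 1 by DESeq2.

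For each receptor gene 2 or 3 of the protein-coding genes nearest in pattern are named, found by the root mean square difference of centered log2 CPM over the 9 libraries, among at least 9709 genes. For Ccrl2 they were Ppp1r15a (0.321), Ccl3 (0.378) and Gm6377 (0.449). Cxcr4 was nearest to Klf9 (0.226), Abl2 (0.256) and Pwwp2b (0.267), and Cxcr6 to Cd63 (0.831), Rai14 (1.01) and Adam8 (1.19). For Ccr1 they were Mmp19 (0.249), Hrh2 (0.270) and Fitm2 (0.281), and for Ccr2 Cpne3 (0.0896), Fadd (0.137) and Rwdd2b (0.137). Cx3cr1 was nearest to Lpgat1 (0.287), Dgkh (0.297) and Ext1 (0.304). Ccr3 was nearest to Retnlg (0.381), Siglecf (0.653) and Nlrp12 (0.681), of which Retnlg is in the neutrophil list and Siglecf in the eosinophil list. The nearest to Cxcr2 were Nlrp12 (1.04), Cebpe (1.24) and Spg11 (1.33), and to Cxcr3 Slc20a2 (0.178) and Eif4enif1 (0.190). Distances were small where the receptor gene itself varied little and large for Cxcr2 and Cxcr6, whose counts in blood were few.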

How the data were processed

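RNA of sorted monocytes/macrophages from 9 libraries was amplified as cDNA (SMART-Seq HT), made into libraries by tagmentation and read as pairs. The authors mapped reads to GRCm38 with HISAT2 and counted them with HTSeq, and the deposited values are raw counts per gene; versions, annotation release and strand setting are not given in the sources used here. Groups came from the sample titles. GENCODE M21 gave symbols, exon lengths and overlaps, and 53706 of the 53801 identifiers were found in it.

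Pairs of groups were compared in R 4.3.3 by the quasi-likelihood test of edgeR 4.0.16, with TMM scaling and its default filter on low counts, and Benjamini-Hochberg adjustment over all genes tested. A DEG needed an adjusted p below 0.05 together with a log2 fold change beyond 1 in size. The SE is the size of the log2 fold change over the square root of its F statistic. Groups that do not overlap were judged on CPM by library size. The fits were tested on simulated data. A fold against a group at 0 is a lower bound against 3 counts in each library, and a group with few counts gets an exact 95% interval of the ratio; both cover counting error only, since PCR copies were not removed by molecular identifiers. Replicate libraries differed by more than sampling noise. The sources call them biological replicates, so each was counted as 1.

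The genes named were the receptor genes, other chemokine receptors and ligands from the lists, up to 6 called genes per comparison with the largest change from the signaling and the other attractant receptor lists, most abundant and near-absent genes of 15 marker lists, and up to 3 genes nearest in pattern (mean log2 CPM above 1, prior count 2). Members and lists were chosen with earlier results of these data known. Genes outside this rule are Itgam, Ptprc, Itgax, Serpinb10, and the marker genes Siglecf, Prg2, Pecam1 and Ly6c1, singled out after their values were seen. Alternatives were DESeq2 1.42.0 (its counts of called genes cover a whole list, by its own filter), RLE or library-size scaling, no filter or a mean of 50 counts, the replicate number as a block, a joint fit of all 9 libraries, no fold threshold, a stricter adjusted p (below 0.01), other gene lengths, the sum without its most abundant gene, and leaving out each library. Tables were made in Python 3.11.15 with pandas 2.3.3, scipy 1.17.1 and numpy 2.4.6, and figures with matplotlib 3.10.9.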

Additional observations from a re-analysis of the deposited data

How the results depend on the processing

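With 3 libraries a group, single libraries decided several calls, and the brain libraries, each a pool of mice, cannot be told apart from the tissue they came from by preparation: brain and blood cells were freed and enriched by different steps. There was no sham brain, and whether libraries were made in batches is not given in the sources used here. Sham blood 1 and stroke brain 3 carry the same sample-sheet number, so more than 1 sequencing run is possible. The paper states that the samples were pooled in equimolar amounts for sequencing. Cxcr2 and Cxcr6 had few counts in blood.

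Ccr1, Ccrl2 and Cxcr6 were called in stroke brain versus stroke blood in all 13 alternatives. In new fits with a library left out, 3 to 4 receptor genes were called (4 with all libraries) and 2258 to 3014 DEGs (2771 with all). In stroke brain versus sham blood these were 0 to 3 receptor genes (3 with all) and 1146 to 1883 DEGs (1748 with all). In stroke blood versus sham blood they were 0 receptor genes and 0 to 16 DEGs (1 with all). At an adjusted p below 0.01 DEGs were 1793, 792 and 0 in the 3 comparisons, and receptor genes called against sham blood 0. DESeq2 called 127 DEGs between the blood groups and edgeR without a filter 160, against 1; the causes were not tested.

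Differences that reversed were not called. For Ccr3 in stroke brain versus sham blood the log2 fold change was -0.28 without sham blood 1, -0.02 without sham blood 2, -0.06 without stroke brain 2 and -0.33 without stroke brain 3, and 0.55 without sham blood 3. For Cxcr2 it was 0.0679 without sham blood 3 and -3.47 without stroke brain 1. Between stroke and sham blood it ran from -0.64 (without sham blood 3) to 0.98 (without sham blood 1) for Ccrl2, from -0.0369 (without sham blood 2; -0.04 without stroke blood 2) to 0.28 (without sham blood 3) for Ccr2, and from -0.13 (without stroke blood 3) to 0.22 (without stroke blood 2) for Cxcr4. The cause was not tested.

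Whether stroke blood and stroke brain cells came from the same mice is not given in the sources used here. No pairing by replicate number was seen, though with 3 libraries per group this check cannot decide it. Same-numbered libraries correlated between -0.0722 and 0.0751, -0.0255 and 0.06, and -0.0547 and 0.0009 over the comparisons. In these, 2, 3 and 0 of 6 libraries correlated best with their own number. With the numbers as a block, DEGs were 2634, 1571 and 1, and receptor genes called 4, 2 and 0; Cxcr4 against sham blood was 1.36 (adjusted p = 0.0913 with edgeR), Ccr3 in brain versus stroke blood was 1.38 (adjusted p = 0.0982 with edgeR), and Ccrl2 between blood groups turned to 0.21.

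Summed TMM CPM without Ccr2 was 647 in sham blood, 698 in stroke blood and 1452 in stroke brain, and per kilobase 184, 175 and 467. With the longest transcript the brain sum per kilobase was 695. With a library left out, the balance of Cx3cr1 to Ccr2 differed by 1.00 to 1.67 between brain and stroke blood, 1.46 to 2.17 between brain and sham blood and 0.18 to 0.89 between blood groups.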
